A study of Mus musculus with 90 samples.

Results

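The expression of 8 genes known for heat production in brown fat was followed through 15 tissues of female mice in estrus and in diestrus. They were found among the 20414 genes of the deposited table by their Entrez Gene identifiers, which are 22227 for Ucp1, 12683 for Cidea, 13371 for Dio2, 19017 for Ppargc1a, 12686 for Elovl3, 70673 for Prdm16, 11556 for Adrb3 and 22771 for Zic1, and all 8 were present. RNA of whole tissue was sequenced from untreated C57BL/6 mice (C57BL/6J by the study's methods), 10 weeks old by the sample labels, whose phase had been read from stained vaginal secretions. For each of the 15 tissues there were 3 libraries of mice in estrus and 3 of mice in diestrus, which gave 90 libraries, and these groups carried no transgene or treatment. The labels do not name the depot of the white adipose tissue (WAT) or the vein, and do not say whether the fat that lies around the vessels was removed from the aorta and the vein. The unit is FPKM, in which the fragments of a gene are divided by the length of the gene and by the total of fragments mapped, so levels are relative to all RNA of a library. In whole tissue, fewer cells of a type and less RNA per cell cannot be told apart.

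Brown adipose tissue (BAT) burns fuel to make heat. Noradrenaline from sympathetic nerves acts on the beta-adrenergic receptor encoded by Adrb3, cyclic AMP rises in the cell, stored fat is released, and UCP1 lets protons back across the inner mitochondrial membrane without making ATP. Ppargc1a encodes a coactivator that drives the making of mitochondria, Prdm16 a transcriptional regulator of brown fat identity, and Zic1 a zinc finger transcription factor that marks the classical brown fat of the trunk. Dio2 encodes the deiodinase that activates thyroid hormone inside the cell, Elovl3 an enzyme that lengthens fatty acids, and Cidea a protein of the lipid droplet surface. White fat stores energy and has little UCP1, although cells with brown-like features can appear in it, and the fat around large vessels can resemble brown or white fat.

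The read-out of cyclic AMP on the genome runs in part through CREB, which binds the cyclic AMP response element (CRE), TGACGTCA, or its shorter core, TGACG. Promoter sequence from RefSeq (build GRCm38.p6) was used for 5 of the members, Ucp1, Dio2, Ppargc1a, Prdm16 and Zic1. None was searched or printed for Cidea, Elovl3 and Adrb3. The 250 bases before the start of the gene were searched on both strands for the full element, the core, the TATA box TATAAA, the direct repeat of AGGTCA with 1 base between the copies that nuclear receptors bind, and the estrogen response element, which is GGTCA and TGACC with 3 bases between them. The 3 promoters with a match are shown from 5′ to 3′ on the strand of the gene, since they belong to genes that cyclic AMP acts on in brown fat, and capitals mark the matches. They lie directly upstream of the annotated starts, at chr8:83290098-83290347 on the plus strand for Ucp1, at chr12:90739039-90739288 on the minus strand for Dio2 and at chr5:51567726-51567975 on the minus strand for Ppargc1a.
Ucp1: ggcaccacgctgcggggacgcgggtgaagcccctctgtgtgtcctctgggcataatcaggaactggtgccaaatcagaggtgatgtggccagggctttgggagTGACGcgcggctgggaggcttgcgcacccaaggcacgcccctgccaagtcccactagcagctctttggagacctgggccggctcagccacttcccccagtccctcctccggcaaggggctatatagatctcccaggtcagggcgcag
Dio2: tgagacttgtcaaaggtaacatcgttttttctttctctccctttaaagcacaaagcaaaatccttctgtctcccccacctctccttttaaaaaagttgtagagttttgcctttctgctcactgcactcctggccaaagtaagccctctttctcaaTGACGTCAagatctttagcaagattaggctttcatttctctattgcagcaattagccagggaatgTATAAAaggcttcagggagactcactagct
Ppargc1a: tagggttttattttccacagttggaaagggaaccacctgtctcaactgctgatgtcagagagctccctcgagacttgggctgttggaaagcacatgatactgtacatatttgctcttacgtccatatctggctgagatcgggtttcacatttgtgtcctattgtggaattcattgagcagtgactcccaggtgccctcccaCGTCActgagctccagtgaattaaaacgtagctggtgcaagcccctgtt
The full element was found in 1 of the 5 windows, that of Dio2, where it began 95 bases before the start, and 1.55% of the 32851 promoters of the same length hold it. The core, which the full element contains, was found in 3 of the 5 windows, against 17.8% of all promoters. The TATA box was found in 1 window, again that of Dio2, against 12.4%. The direct repeat and the estrogen response element were found in 0 of the 5 windows, against 0.0335% and 0.0639% of all promoters. A match describes these letters in this window and is not evidence of binding.

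One library stood apart before any comparison. The library of BAT estrus replicate 3 lists 12048 genes at 0, against 4545 to 4820 in the other 5 BAT libraries and 2404 to 4820 in the other 89 libraries, and the lowest 5% of its values above 0 reach up to 2.72 FPKM, where the limit in the others is 0.0365 to 0.1 FPKM. A low gene can therefore be missed in it, and Zic1 is listed at 0 there. Its levels are given apart and it stays out of the tests, which leaves 5 libraries of BAT. Among the other BAT libraries the summed level of 10 skeletal muscle fibre genes spanned 38.5 to 6889 FPKM, so BAT libraries differed in muscle RNA. The library of aorta estrus replicate 1 also stood apart, with a summed level of 6 smooth muscle genes of 15868 FPKM against 1702 to 2533 in the other aorta libraries, and a summed level of 6 adipocyte genes of 3306 FPKM against 17647 to 19310. Differences that involve the aorta are given with and without it.

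Ucp1 had its highest level in BAT. Its level in BAT was 5574 and 4868 FPKM in the estrus libraries and 4747, 4314 and 3500 FPKM in the diestrus libraries, with 3492 FPKM in the shallow library. In aorta it was 205, 2606 and 1541 FPKM in estrus and 1019, 2896 and 2589 FPKM in diestrus, and in vein 755, 432 and 241 FPKM in estrus and 111, 481 and 347 FPKM in diestrus. In WAT it was 0.66, 32.8 and 11.4 FPKM in estrus and 4.61, 3.40 and 0.92 FPKM in diestrus. BAT lay above every aorta library, all vein libraries lay above all WAT libraries, and aorta and vein overlapped. The 11 other tissues had means of 0.00667 FPKM in liver to 2.60 FPKM in kidney, and BAT held 67.4% of the sum of the 15 tissue means.

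Cidea kept the same order of these tissues on a smaller range. BAT libraries had 1883 and 2287 FPKM in estrus and 2797, 2496 and 2521 FPKM in diestrus, aorta had 104 FPKM in estrus replicate 1 and 1466 to 1864 FPKM in the others, vein 305 to 794 FPKM and WAT 2.97 to 62.7 FPKM. Heart followed directly after WAT, with 24.5 to 30.7 FPKM in its 6 libraries, all within the range of WAT and apart from the hypothalamus, which had 4.20 to 5.51 FPKM. Ucp1 had a mean of 0.00833 FPKM in heart.

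Elovl3 had the third profile of this kind, with 62.0 ± 26.5 FPKM (SD, n = 5) in BAT, 28.9 ± 24.1 FPKM (SD, n = 6) in aorta, 13.2 ± 12.2 FPKM (SD, n = 6) in vein and 3.27 ± 3.23 FPKM (SD, n = 6) in WAT. Its spread was wide, and 0 of the 14 pairs of neighbours in the order of tissues were apart. Liver was the only tissue outside fat and vessels with a mean of at least 1 FPKM, at 2.64 FPKM, and 41 of the 90 libraries list the gene at 0.

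**Figure D1:**
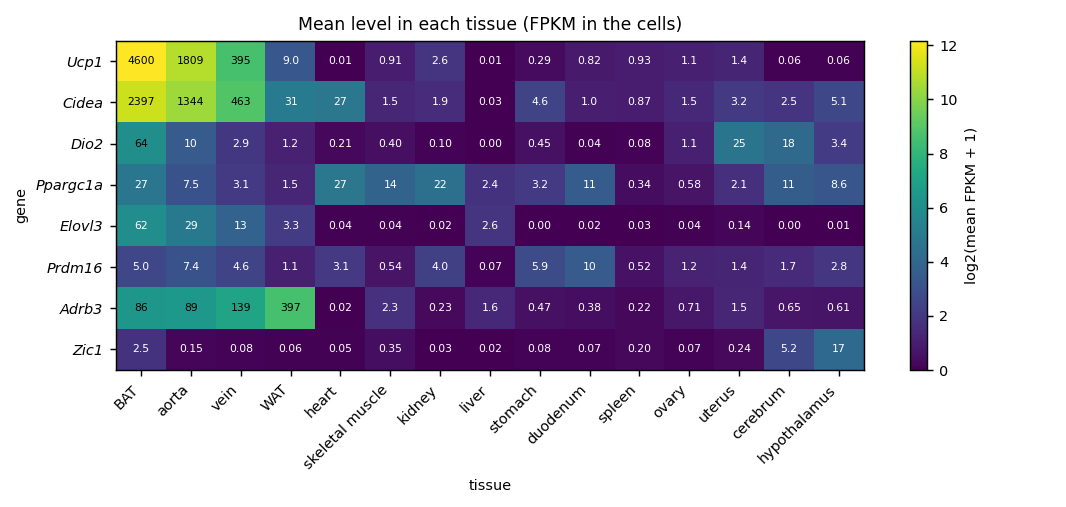
Mean level of each of the 8 genes (rows) in each of the 15 tissues (columns), with the mean FPKM printed in the cells and colour giving log2(mean FPKM + 1), over 6 libraries per tissue and 5 in BAT. Ucp1, Cidea, Dio2 and Elovl3 are highest in BAT, Adrb3 in WAT, Ppargc1a in heart, Prdm16 in duodenum and Zic1 in hypothalamus.

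Dio2 was highest in BAT as well, but its next tissues were not fat. BAT had 64.4 and 65.6 FPKM in estrus and 80.4, 33.3 and 74.3 FPKM in diestrus, with 20.7 FPKM in the shallow library. Uterus, labelled as womb, had 12.4, 38.6 and 3.47 FPKM in estrus and 39.9, 40.8 and 14.6 FPKM in diestrus, which overlapped with the lowest BAT library. Cerebrum had 10.1 to 23.3 FPKM, aorta 8.10 to 15.6 FPKM, vein 2.03 to 4.99 FPKM and WAT 0.06 to 4.45 FPKM. All 6 liver libraries list Dio2 at 0. In the aorta the highest value, 15.6 FPKM, came from the library with the least adipocyte RNA, where Dio2 was 14.9% of the level of Adipoq, the adiponectin gene of all adipocytes, against 0.743% to 1.25% in the other 5.

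For the other 4 members BAT was not the highest tissue. Ppargc1a was spread over many tissues. Its highest means were 27.2 FPKM in heart, 26.6 FPKM in BAT, 21.8 FPKM in kidney and 13.9 FPKM in skeletal muscle. In the order of tissues 0 of its 14 pairs of neighbours were apart. Its BAT mean rested on 1 library, estrus replicate 1 with 70.7 FPKM, while the other 4 had 9.66 to 19.5 FPKM and the shallow library 27.5 FPKM. Prdm16 was low throughout and highest in duodenum at 10.3 FPKM, followed by aorta at 7.43, stomach at 5.94 and BAT at 4.97 FPKM, and WAT had 1.07 FPKM. The aorta library with the least adipocyte RNA had the highest Prdm16 of that tissue, 11.3 FPKM against 4.37 to 8.75 FPKM, or 10.8% of Adipoq against 0.437% to 0.762%. Prdm16 and Dio2 in aorta therefore did not follow the adipocyte markers across its libraries, whereas Ucp1, Cidea, Elovl3, Ppargc1a and Adrb3 were all lowest in that library.

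Adrb3 ran opposite to Ucp1 among the fat tissues. WAT had 346, 475 and 320 FPKM in estrus and 565, 310 and 364 FPKM in diestrus, all above the 101 to 191 FPKM of vein, the 16.2 to 130 FPKM of aorta and the 48.5 to 128 FPKM of BAT. Divided by Adipoq in the same library, the medians were 0.139 in WAT, 0.145 in vein, 0.111 in aorta and 0.0855 in BAT. The ranges of these ratios overlapped. Adipoq itself was higher in every WAT library than in any library of vein, aorta or BAT, which lowers the ratio of WAT. For Ucp1 the same ratios did not overlap, as given with the plot of Ucp1 against Adipoq.

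Zic1 was highest in the brain tissues, followed by BAT, whose range overlapped with that of cerebrum. Hypothalamus had 8.01 to 23.3 FPKM, cerebrum 3.17 to 8.26 FPKM, and the 5 BAT libraries 3.27 and 1.98 FPKM in estrus and 2.00, 3.19 and 1.92 FPKM in diestrus. All 5 lay above the aorta libraries (0.03 to 0.48 FPKM), the vein libraries (0.04 to 0.14 FPKM) and the WAT libraries (0 to 0.11 FPKM). In contrast to Ucp1, Cidea and Elovl3, the high level of the aorta was not shared by Zic1.

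**Figure D2:**
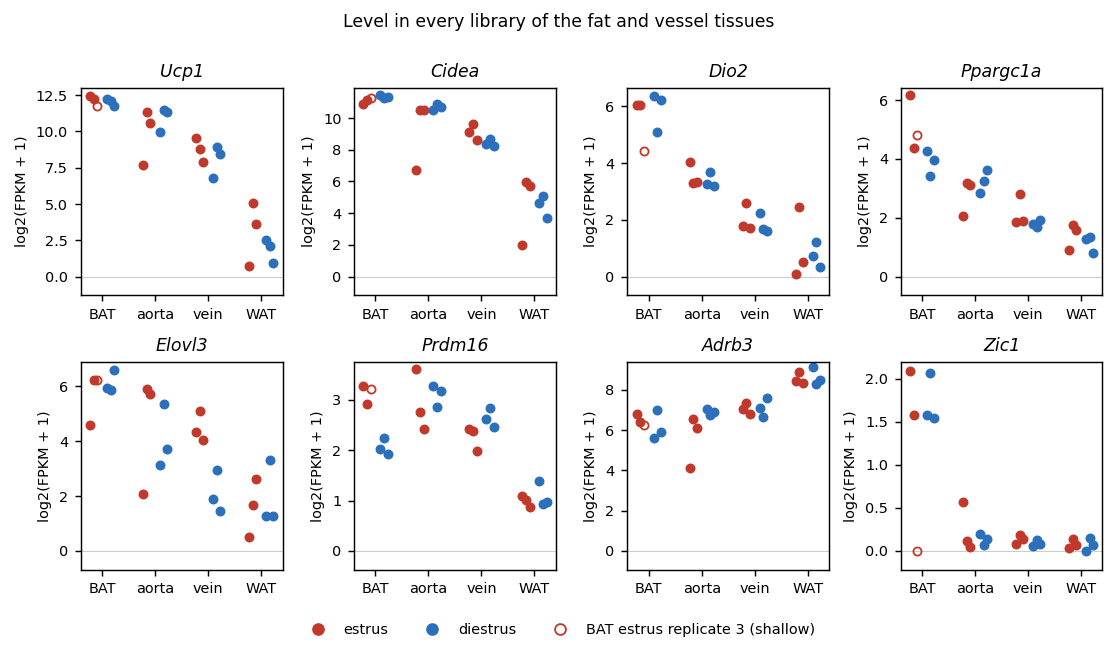
Level of each gene as log2(FPKM + 1) in every library of BAT, aorta, vein and WAT, red for estrus and blue for diestrus, with the shallow BAT library as an open circle. Ucp1, Cidea and Elovl3 step down from BAT to aorta, vein and WAT, Adrb3 is highest in WAT, and Zic1 is above 1 FPKM in the 5 BAT libraries and in no library of the other 3 tissues.

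The labels of the fat tissues were compared with marker genes. BAT had the highest summed level of 25 brown adipocyte genes (7905 to 10662 FPKM) and WAT the lowest (259 to 550 FPKM), with aorta at 5478 to 7742 FPKM apart from the 1065 FPKM of estrus replicate 1, and vein at 1272 to 2503 FPKM. Lep, the leptin gene of white adipocytes, was at 104 to 211 FPKM in WAT, 6.34 to 37.4 FPKM in vein, 0.38 to 23.7 FPKM in aorta and 0.70 to 9.91 FPKM in BAT. Hoxc9, a homeobox gene of the posterior body used as a marker of beige and white depots, was listed at 0 in all BAT libraries and was at most 1.04 FPKM in aorta, but had 11.6 to 15.2 FPKM in vein and 10.8 to 17.1 FPKM in WAT. The vein thus combined a Ucp1 level above that of WAT in all libraries with a Hoxc9 level within the range of WAT. Hoxc9 is among 7 beige adipocyte genes whose summed level ran the other way. That sum was 308 to 384 FPKM in BAT, 178 to 332 FPKM in vein and 156 to 222 FPKM in WAT. In aorta it was 327 to 408 FPKM apart from the 74.1 FPKM of estrus replicate 1. Slc36a2 alone had a mean of 305 FPKM in BAT. Th, which encodes the enzyme that starts noradrenaline synthesis, was at 173 to 402 FPKM in vein and at most 0.40 FPKM in BAT, aorta and WAT, and the part of such cells in the vein values was not tested.

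To ask how far the members differ between these tissues, each pair of tissues was fitted with limma on log2(FPKM + 1) over all genes that reached a mean of 1 FPKM in either of them, with the phase as a covariate, and a gene was called at an adjusted p of at most 0.05 and a log2 fold change of at least 1. The 6 pairs share libraries, so they are not independent of each other. Between BAT and WAT all 8 members were called, 7 higher in BAT and Adrb3 lower, where 19% of all 12280 genes tested were called, 7.13% as higher and 11.9% as lower. Ucp1 differed by 9.74 (SE 0.63, adjusted p = 2.35e-07), Cidea by 6.68 (SE 0.61), Dio2 by 5.09 (SE 0.39), Elovl3 by 4.01 (SE 0.47), Ppargc1a by 3.23 (SE 0.34), Zic1 by 1.70 (SE 0.14) and Prdm16 by 1.47 (SE 0.21), while Adrb3 differed by -2.24 (SE 0.26, adjusted p = 1.96e-05). All 8 had BAT and WAT libraries apart, with a background of 45.8%. Zic1 passed the filter on low values through BAT alone, and its fold is understated by the pseudocount of 1. With libraries shifted to one median, 1279 genes were called higher in BAT and 880 lower, and with values rescaled to a common sum 742 and 2614, while all 8 members kept their calls and directions under both. The median difference of all genes tested was -0.23, so these differences are slightly larger relative to the bulk of genes in BAT and slightly smaller for Adrb3.

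Against aorta, 3 of the 8 members were called, all higher in BAT, with a background of 12.5% in either direction and 0.973% higher. These were Dio2 at 2.51 (SE 0.23, adjusted p = 5.10e-05), Zic1 at 1.60 (SE 0.16, adjusted p = 8.00e-05) and Ppargc1a at 1.46 (SE 0.44, adjusted p = 0.0236), and the call of Ppargc1a was lost without BAT estrus replicate 1 (0.95, adjusted p = 0.0413), which fell below the fold limit. Zic1 again passed the filter through BAT alone and had to be higher there. Ucp1 differed by 1.70 (SE 0.63) with an adjusted p of 0.0520, although its libraries were apart, and it was called with libraries shifted to one median (2.08, adjusted p = 0.0308), where all genes split into 500 higher and 785 lower. Elovl3 differed by 1.52 (SE 0.72, adjusted p = 0.111) and Cidea by 1.14 (SE 0.63, adjusted p = 0.167). Without aorta estrus replicate 1, Ucp1 differed by 1.20 with an adjusted p of 0.00462 and was called, and Cidea by 0.58 with an adjusted p of 0.000591, short of the fold limit. Prdm16 had a difference of -0.51 (SE 0.27, adjusted p = 0.150) and Adrb3 one of 0.05 (SE 0.49, adjusted p = 0.942), which became -0.33 without that aorta library and -0.22 without BAT estrus replicate 1, so the direction of Adrb3 was not settled.

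Against vein, 6 of the 8 members were called, all higher in BAT, with a background of 30.5% in either direction and 5.25% higher. Dio2 differed by 4.04 (SE 0.24), Ucp1 by 3.80 (SE 0.37), Elovl3 by 2.65 (SE 0.57), Ppargc1a by 2.52 (SE 0.33), Cidea by 2.46 (SE 0.23) and Zic1 by 1.67 (SE 0.13), with adjusted p from 4.62e-08 to 0.00120. The direction of Zic1 was fixed by the filter here too. Prdm16 differed by 0.05 (SE 0.24, adjusted p = 0.859) and changed sign with the scaling to a common sum, where it was -0.20. Adrb3 was lower in BAT by a difference of -0.73 (SE 0.25, adjusted p = 0.0194), short of the fold limit, and was called as lower with values rescaled to a common sum (-1.01, adjusted p = 0.00359). With libraries shifted to one median the calls over all genes were 1999 higher and 1688 lower, and the 6 calls of members stayed.

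**Figure D3:**
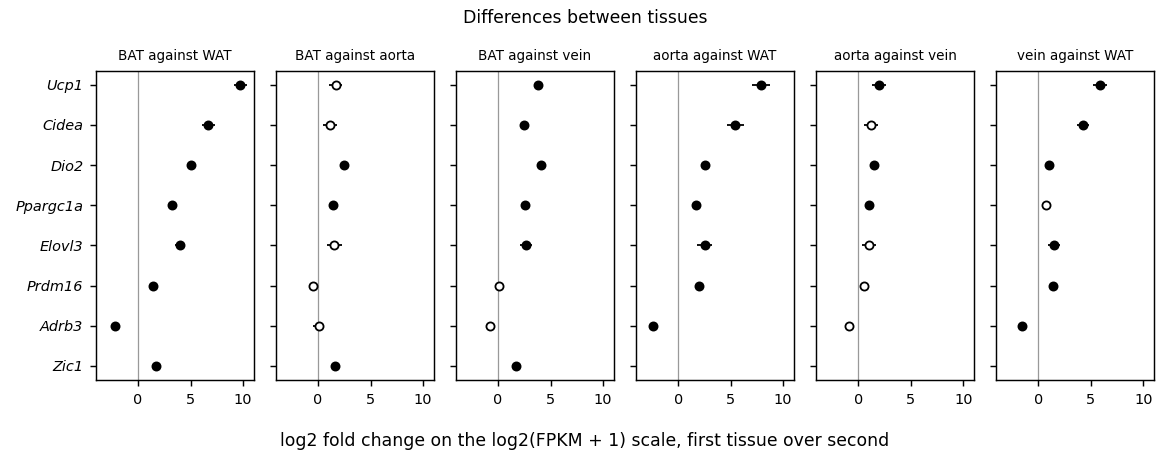
Difference of each gene between 6 pairs of fat and vessel tissues as log2 fold change of log2(FPKM + 1), first tissue over second, with bars of 1 SE. Filled circles were called and open circles were not, and Zic1 was below the filter in the last 3 pairs. BAT against WAT spans 9.74 for Ucp1 to -2.24 for Adrb3.

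Both vessels were compared with WAT and with each other. In aorta against WAT, 7 of 7 members tested were called, with a background of 12.8%, of which 8.82% were higher in aorta and 4.02% lower. Ucp1 was higher in aorta by 7.91 (SE 0.83, adjusted p = 3.43e-05), Cidea by 5.46 (SE 0.80), Dio2 by 2.58 (SE 0.35), Elovl3 by 2.54 (SE 0.71), Prdm16 by 1.98 (SE 0.18) and Ppargc1a by 1.73 (SE 0.25), and Adrb3 differed by -2.35 (SE 0.39). Without aorta estrus replicate 1 all 7 remained called, with Ucp1 at 8.53, Cidea at 6.11, Elovl3 at 3.04, Dio2 at 2.47, Ppargc1a at 1.93, Prdm16 at 1.83 and Adrb3 at -1.95. In vein against WAT, 6 of 7 were called, with a background of 17.1% (14.8% higher in vein and 2.23% lower). The calls were Ucp1 at 5.90 (SE 0.65, adjusted p = 1.12e-05), Cidea at 4.26 (SE 0.58), Elovl3 at 1.52 (SE 0.59), Prdm16 at 1.41 (SE 0.13), Dio2 at 1.05 (SE 0.35) and Adrb3 at -1.50 (SE 0.19). The calls of Elovl3 (adjusted p = 0.0499) and Dio2 (adjusted p = 0.0262) in the vein were close to the limits and were lost in 9 and 5 of the 12 fits that left out 1 library, and with libraries shifted to one median both were lost (1.16 and 0.70), leaving 4 members called in vein against WAT, where all genes split into 1394 higher and 660 lower. Aorta against vein gave 3 calls of 7, all higher in aorta, with a background of 11.2% and of 1.9% for higher genes, namely Dio2 at 1.53 (SE 0.20, adjusted p = 9.49e-05), Ppargc1a at 1.02 (SE 0.27, adjusted p = 0.0131) and Ucp1 at 2.01 (SE 0.67, adjusted p = 0.0435). Only Dio2 was called in all 12 fits that left out 1 library. Ucp1 lost its call in 10 of them, all but those without aorta or vein estrus replicate 1, and Ppargc1a in 9, and without aorta estrus replicate 1 Cidea (1.88, adjusted p = 2.19e-05) and Elovl3 (1.67, adjusted p = 0.00455) were called too, with Ucp1 at 2.59, Dio2 at 1.42 and Ppargc1a at 1.22. With libraries shifted to one median the same pair gave 430 genes higher in aorta and 969 lower, and 3 members called.

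Since the tissues differ in how much fat they hold, Ucp1 was also divided by Adipoq in the same library. Adipoq itself was 2299 to 3382 FPKM in WAT and 804 to 1063 FPKM in BAT, although both are fat. The ratio is therefore a level relative to Adipoq and not to the amount of fat. The higher Adipoq of WAT lowers the ratio there. The ratio had a median of 4.47 in BAT (range 4.09 to 5.95), 2.17 in aorta (0.888 to 3.10), 0.298 in vein (0.124 to 0.852) and 0.00156 in WAT (0.000275 to 0.0119), and the ranges of the 4 tissues did not overlap. The aorta library with little fat was within its group, at a Ucp1 level of 205 FPKM and an Adipoq level of 104 FPKM. The mean log2 ratio of BAT exceeded that of WAT by 11.69, that of aorta exceeded that of WAT by 10.37 and that of vein by 2.46, and that of vein exceeded that of WAT by 7.91. Each of these 4 differences had a p of 0.0021645 in a two-sided exact permutation test, also after adjustment over the 4, which is the smallest p that these numbers of libraries allow. As folds taken from these differences of mean log2 ratios, aorta had 5.51-fold the Ucp1 of vein per Adipoq, and vein 241-fold that of WAT. For Cidea the median ratios were 2.37, 1.42, 0.458 and 0.0116 in the same order of tissues.

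**Figure D4:**
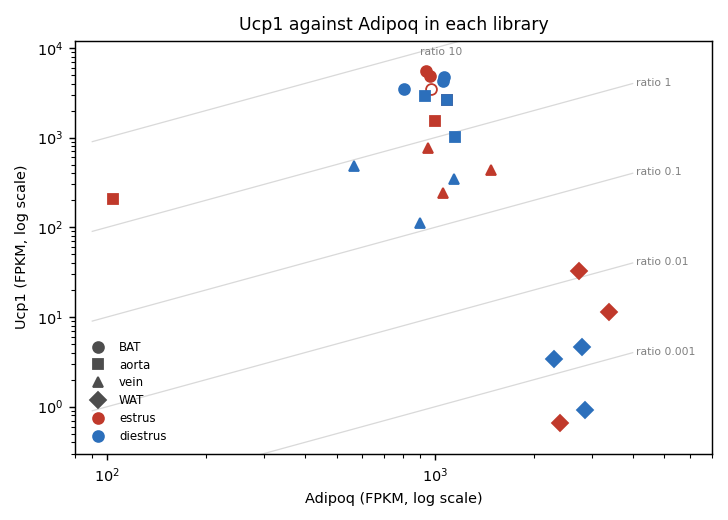
Ucp1 against Adipoq in every library of BAT (circles), aorta (squares), vein (triangles) and WAT (diamonds), both in FPKM on log axes, red for estrus and blue for diestrus, with the shallow BAT library open and grey lines of equal ratio. BAT, aorta, vein and WAT lie in bands with medians of 4.47, 2.17, 0.298 and 0.00156, and the aorta library with an Adipoq of 104 FPKM lies in the band of the aorta.

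The estrus and diestrus libraries were then compared within each tissue. Of the 120 pairs of member and tissue, 68 passed the filter on low values, and limma called 0 of them, against 0.00108% of all genes and tissues. At an unadjusted p under 0.05 there were 10 of the 68, against 8.88%, and the phases did not overlap in 13 of the 68, against 16.1%. With 1 fit of all libraries that shares the spread between tissues, 5 were called, which were Prdm16 and Ppargc1a in BAT, Elovl3 in vein, Adrb3 in aorta and Dio2 in uterus, against 1.24% of all genes and tissues in that fit. In each tissue 3 libraries against 3 cannot go below a p of 0.1 in an exact permutation test of 1 gene.

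In BAT, 4 of the 8 members had phases that did not overlap, but so had 49.4% of the 11215 genes tested, with 2 libraries against 3. Prdm16 had 8.66 and 6.60 FPKM in estrus and 3.07, 3.73 and 2.78 FPKM in diestrus, a difference of 1.04 (SE 0.16, adjusted p = 0.0511), and the shallow estrus library had 8.36 FPKM. Per Adipoq, Prdm16 was 0.925% and 0.684% in estrus and 0.289% to 0.353% in diestrus, again apart. Ppargc1a had 70.7 and 19.5 FPKM in estrus and 18.5, 9.66 and 14.5 FPKM in diestrus, a difference of 1.38 (SE 0.54, adjusted p = 0.155) that shrank to 0.47 without estrus replicate 1. Ucp1 was higher in estrus by 0.33 (SE 0.15, adjusted p = 0.205), although the shallow estrus library had 3492 FPKM, below all diestrus libraries, and Cidea differed by -0.33 (SE 0.11, adjusted p = 0.128). Elovl3, Dio2, Adrb3 and Zic1 overlapped between the phases, with differences of -0.71, 0.15, 0.41 and 0.10. The skeletal muscle sum of these libraries was 1673 and 1834 FPKM in estrus and 38.5, 375 and 6889 FPKM in diestrus, which overlapped. Other marker sums separated the phases, being lower in estrus, namely 17527 and 20354 FPKM against 22369 to 25521 FPKM for 6 pan-adipocyte genes, 7905 and 8665 FPKM against 9550 to 10662 FPKM for 25 brown adipocyte genes, and 164 and 188 FPKM against 229 to 267 FPKM for 4 endothelial genes. Their part in these differences was not tested.

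Among the other genes of the brown fat lists in BAT, limma called 0 of 24 brown adipocyte genes and 0 of 17 regulators between the phases, with 11 and 8 at an unadjusted p under 0.05 against 30% of all genes. Ppara, a receptor that drives fat burning (1.01), and Ebf2, a brown fat transcription factor (1.16), had the adjusted p of Prdm16, 0.0511. So did Pdk4, a kinase that limits glucose use (1.33), and all were higher in estrus. The adjustment can give genes of unlike p the same value, so the tie does not link these genes. They were named after their values were seen. The mitochondrial subunit genes Cox8b (-0.67) and Cox7a1 (-0.63) were lower in estrus, with adjusted p of 0.0548 and 0.0699. The difference of the phase effect between BAT and WAT was called for 0 of the 8 members, against 0.277% of all genes. At an unadjusted p under 0.05 there was 1 of the 8, against 20% of all genes. That gene was Prdm16, at 1.15 (SE 0.25, adjusted p = 0.0665), and it was called when all libraries were fitted together (adjusted p = 0.0142).

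Elovl3 gave the largest phase difference of any member. In vein it had 19.1, 33.5 and 15.5 FPKM in estrus and 2.71, 6.64 and 1.76 FPKM in diestrus, a difference of 2.40 (SE 0.42, adjusted p = 0.412) with every estrus library above every diestrus library. Vein also had estrus and diestrus apart for Prdm16, lower in estrus by a difference of -0.38, and 18.2% of all genes tested in vein were apart. In the same libraries the sum of 6 adipocyte genes was 19414 to 25650 FPKM in estrus and 11462 to 18699 FPKM in diestrus, and per Adipoq the Elovl3 level was 1.48% to 2.27% in estrus and 0.154% to 1.18% in diestrus, so the phases were apart in this ratio too. In liver Elovl3 had 6.35, 2.83 and 4.04 FPKM in estrus and 0.75, 1.37 and 0.48 FPKM in diestrus, a difference of 1.51 (SE 0.27, adjusted p = 0.811), with a background of 11.3% apart. The 5 tissues where the gene could be tested did not share a direction, since BAT had -0.71, WAT -0.35 and aorta 0.51, each with overlapping phases. Without aorta estrus replicate 1 the aorta difference was 1.75 (SE 0.60, adjusted p = 0.401) with the phases apart. The difference of its phase effect between aorta and vein was -1.89 (SE 1.32, adjusted p = 0.695), or -0.65 (SE 0.82, adjusted p = 0.916) without that library. In that test with all libraries, 0 of the 7 members and 0% of all genes were called. At an unadjusted p under 0.05 there were 0 of the 7, against 3.26% of all genes.

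**Figure D5:**
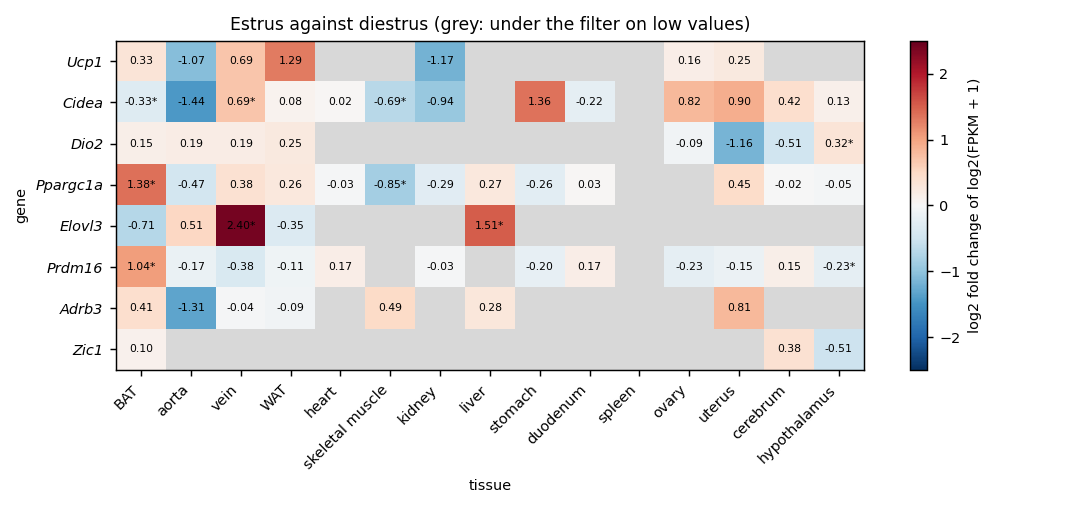
Estrus against diestrus for each gene (rows) in each tissue (columns), as log2 fold change of log2(FPKM + 1), red where estrus is higher and blue where diestrus is higher, with an asterisk at an unadjusted p under 0.05 and grey where the mean was below 1 FPKM. The range runs from -1.44 for Cidea in aorta (-0.17 without aorta estrus replicate 1) to 2.40 for Elovl3 in vein, and 0 of the 68 tested cells passed the adjustment.

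Phases were also compared in muscle, vessels, brain and ovary. In skeletal muscle Ppargc1a had 12.8, 8.18 and 7.88 FPKM in estrus and 12.9, 22.2 and 19.2 FPKM in diestrus, a difference of -0.85 (SE 0.23, adjusted p = 0.119), and Cidea differed by -0.69 (SE 0.17, adjusted p = 0.107), both apart where 26.2% of genes were. The Ppargc1a difference was -1.05 (adjusted p = 0.0273) and was called without estrus replicate 1. In aorta Adrb3 had 16.2, 92.1 and 69.1 FPKM in estrus and 130, 108 and 119 FPKM in diestrus, a difference of -1.31 (SE 0.62, adjusted p = 0.933). Its phases were apart, as for 11.9% of all genes tested in aorta. Without estrus replicate 1 the difference was -0.57 with a smaller spread (SE 0.15, adjusted p = 0.375), and the phases stayed apart. Cidea there differed by -1.44 (SE 1.07, adjusted p = 0.933), or -0.17 without the same library, and Ucp1 by -1.07, or 0.03 without it. Ppargc1a went from -0.47 to -0.11, Prdm16 from -0.17 to -0.51 (SE 0.18, adjusted p = 0.401) and Dio2 from 0.19 to -0.0548, all short of a call. In vein Cidea was higher in estrus by 0.69 (SE 0.27, adjusted p = 0.412), with overlapping phases. In the hypothalamus Prdm16 differed by -0.23 (SE 0.08, adjusted p = 0.292), Dio2 by 0.32 (SE 0.14, adjusted p = 0.372) and Cidea by 0.13 (SE 0.08, adjusted p = 0.539). The phases were apart there for Prdm16 and Cidea, as for 19.6% of all genes tested. In the ovary Prdm16 had phases apart as well, with a difference of -0.23 (SE 0.18, adjusted p = 0.871), where 13.7% of all genes were apart. In WAT 0 of 7 members had phases apart, against 12% of all genes. Ucp1 there ranged from 0.66 to 32.8 FPKM within estrus alone. The lowest value came from WAT estrus replicate 1, whose summed level of 6 smooth muscle genes was 2905 FPKM. The other WAT libraries had 114 to 288 FPKM. Its sum of 6 pan-adipocyte genes was 30327 FPKM, against 41703 to 49045 FPKM in the others. The part of such cells in its Ucp1 value was not tested.

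Other brown fat genes were placed beside the members. Of 24 brown adipocyte genes tested between BAT and WAT, 21 were higher in BAT and 1 was lower, with a median of 3.55 where all genes had -0.23. In that comparison 7.13% of all genes were called higher and 11.9% lower, against which the counts of this and the following lists stand. The most abundant were Cox8b (5.59, SE 0.47) and Cox7a1 (7.46, SE 0.38), subunits of cytochrome c oxidase, Fabp3 (8.10, SE 0.24), a fatty acid carrier, and Letmd1 (3.32, SE 0.08), a mitochondrial inner membrane protein. The gene lower in BAT was Epsti1 at -1.46 (SE 0.15), and Nrg4 (0.26) and Hspb7 (1.21) were not called. In aorta against WAT 18 of 23 were higher and 0 lower (8.82% and 4.02% of all genes), and in BAT against aorta 3 of 24 were higher and 1 lower (0.973% and 11.5%). That last gene was Hspb7, a small heat shock protein of heart and muscle, at -4.50 (SE 0.71).

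Of 18 regulators, 5 were higher in BAT than in WAT and 2 were lower, the latter close to the share of all genes. The higher ones included Ppara (3.59, SE 0.19), Ppargc1b (2.84, SE 0.12), Cebpb (2.26, SE 0.17) and Esrra (1.98, SE 0.12), and the lower ones were Nrip1 (-1.81, SE 0.10), a corepressor that restrains the brown programme, and Foxc2 (-1.54, SE 0.17). Pparg (-0.12) and Cebpa (-0.88), which serve all adipocytes, were not called. Of 13 genes of adrenergic signalling and lipolysis, 3 were higher and 1 was lower. Gnas (2.46, SE 0.13), which encodes the stimulatory G protein subunit, and Adcy3 (3.06, SE 0.19), an adenylyl cyclase, were higher in BAT, and Plin1 (-1.09, SE 0.20), the perilipin of the lipid droplet, was lower. All 9 white adipocyte genes tested were lower in BAT, from -1.82 for Mest to -5.25 for Lep. Of the markers of other cells, 4 of 6 pan-adipocyte genes, 4 of 6 smooth muscle genes and 2 of 6 blood and immune genes were lower in BAT. Of those of endothelium 0 of 4 tested were called, of neurons 0 of 1, of epithelium 0 of 2 and of sympathetic and mast cells 0 of 2. At an unadjusted p under 0.05 there were 1, 0, 0 and 0 of them, against 68.1% of all genes. A gene that passed the filter only through the tissue where it is high had to differ.

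For heat production that does not need UCP1, 6 of 12 genes were higher in BAT than in WAT and 1 was lower. Slc25a4 (1.17, SE 0.14) and Slc25a5 (0.95, SE 0.11), the ADP/ATP carriers, were high in both, but only the first passed the fold limit. Atp2a1 (4.98, SE 1.06), Ryr1 (1.76, SE 0.53) and Sln (2.00, SE 0.61) are also genes of muscle fibres, and all 10 skeletal muscle fibre genes were higher in BAT than in WAT, and the part of muscle RNA in these values was not tested. Gamt (-1.93, SE 0.16), of creatine synthesis, was lower in BAT, and Ckb (-0.13) was not called. Of the beige adipocyte genes 3 of 7 could be tested, and P2rx5 (2.64, SE 0.21) was higher in BAT, Hoxc9 (-3.81, SE 0.12) lower and Slc36a2 (0.84, SE 0.11) below the fold limit.

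Close relatives of the members were compared in the same fit. Ucp3, the uncoupling protein of muscle and brown fat, was higher in BAT than in WAT by 2.00 (SE 0.22), and Ucp2 differed by -0.90 (SE 0.21, adjusted p = 0.00331), short of the fold limit. Cideb was higher by 3.10 (SE 0.19), while Cidec, the droplet protein of white fat, was lower by a difference of -1.48 (SE 0.15). Adrb1, another beta-adrenergic receptor gene, was higher by 2.11 (SE 0.23), opposite in direction to Adrb3. Ppargc1b was higher, while Mecom, the relative of Prdm16, was not called (-0.01), nor was Elovl6 (0.13). Of the 12 relatives tested among 21, 4 were higher and 1 was lower.

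The likeness of whole tissue profiles was described by Pearson's r of the 15 tissue means of log2(FPKM + 1) over 17279 genes. The 15 points share mice and scaling, and r gives no test. Otop1, a proton channel gene of brown fat, had the profile most like Ucp1, with an r of 0.995, and means of 73.4 FPKM in BAT, 41.3 in aorta, 17.1 in vein and 0.747 in WAT. Cib4 (0.972), Poln (0.959), Gm2832 (0.957), Elovl3 (0.955), Atpaf2 (0.939), Cidea (0.935), 1700001F09Rik (0.918), Crls1 (0.910) and Xrcc6 (0.904) followed. Of these, Cib4, Gm2832 and 1700001F09Rik were low even in BAT, with means of 1.85, 1.88 and 1.07 FPKM. Among the members Ucp1, Cidea and Elovl3 had r of 0.899 to 0.955 with each other, Adrb3 had 0.776 to 0.811 with them, and the r with Ucp1 was 0.615 for Dio2, 0.430 for Prdm16, 0.151 for Ppargc1a and -0.01 for Zic1. Zic4, the neighbouring family member, was most like Zic1 (0.986), Pnpla3 most like Adrb3 (0.983), Gpat4 most like Elovl3 (0.962), Poln most like Cidea (0.960), Usp2 most like Ppargc1a (0.903), 1110008P14Rik most like Dio2 (0.864) and Dok4 most like Prdm16 (0.861). By rank correlation 0 of the 10 genes named for Ucp1 remained among its 10 most like.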

How the data were processed

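RNA of 15 tissues from mice in estrus and diestrus was measured in 90 libraries. The authors aligned reads with Bowtie2 2.2.5 to GRCm38.p5, estimated abundance with RSEM 1.2.8 and deposited FPKM for 20414 genes. The file header does not name the unit, which the methods and values give. Counts were not used here and the methods give only an approximate read number common to all libraries, so no counting interval is given and the depth of each library is unknown. Groups came from the labels, and 0 columns of sample values were left unused. RefSeq symbols of GRCm38.p6 named 20265 genes.

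Levels were compared as log2(FPKM + 1) with limma 3.58.1 in R 4.3.3, with the intensity trend option, after a filter at a mean of 1 FPKM and with Benjamini-Hochberg adjustment over all genes tested. Each tissue or pair of tissues was fitted alone, without BAT estrus replicate 3. The procedure was run on simulated data with known differences, drawn independently for each gene and library. Such data hold no shifts in cell content shared by the genes of a library, and their outcome is not used here. A gene was called at an adjusted p of at most 0.05 and a log2 fold change of at least 1. Ratios to Adipoq used an exact permutation test (Python 3.11.15, numpy 2.4.6, pandas 2.3.3, scipy 1.17.1), and plots used matplotlib 3.10.9. The labels give an age of 10 weeks and the methods another.

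The members and gene lists were chosen with earlier results of these data known. Named besides the members were their relatives, from each list the 4 genes highest in BAT, Lep, and the genes most like each member (10 for Ucp1, 3 for the others). Genes such as Hoxc9, Th, Epsti1, Hspb7, Nrg4, Ppara, Ebf2, Pdk4, Foxc2, Nrip1, Adcy3, Plin1, Ckb, Gamt, Ryr1 and Sln were named after their values were seen. The lists cover brown, beige, white and all adipocytes, regulators, adrenergic signalling, UCP1-independent heat production, and markers of skeletal and smooth muscle, endothelium, neurons, blood and immune cells, epithelium, and sympathetic and mast cells. Some listed genes are not reported here. Alternatives covered the pseudocount, the filter, the scaling, a joint fit, the replicate block, the limits and single libraries left out.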

Additional observations from a re-analysis of the deposited data

Results flagged for a closer look

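In 68 sets of a member and a tissue with at least 1 FPKM on average, the highest or the lowest library was compared with the others by its gap as a share of the range, and 9 sets held a library apart. Chance alone sets apart about 1 in 20. In aorta, estrus replicate 1 was low for Cidea (104.33 FPKM, the others 1466 to 1864) and Adrb3 (16.18 FPKM, the others 69.1 to 130), and Adipoq in that library was 104 FPKM against 934 to 1148. In kidney, diestrus replicate 2 was high for Ucp1 (14.11 FPKM, the others 0 to 0.86) and Cidea (8.98 FPKM, the others 0.19 to 0.94), and it also had the highest Adipoq of the kidney libraries, 7.03 FPKM against 0.24 to 4.05. In uterus, estrus replicate 3 was high for Cidea (12.98 FPKM, the others 0.93 to 1.59), with an Adipoq of 22.4 FPKM against 1.45 to 13.3. The part of adipocytes in these values was not tested. Dio2 in BAT diestrus replicate 2 was low at 33.3 FPKM, the other 4 having 64.4 to 80.4. Ppargc1a was high in vein estrus replicate 2 (6.04 FPKM, the others 2.23 to 2.83) and low in stomach estrus replicate 3 (1.39 FPKM, the others 2.95 to 3.98). Cidea in hypothalamus diestrus replicate 1 was low at 4.2 FPKM, the others having 5.12 to 5.51.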

How the results depend on the processing

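One fit of all libraries moved the counts of members called from 0 to 5 between the phases, from 3 to 6 for BAT against aorta, from 3 to 5 for aorta against vein, and from 0 to 1 for the difference of the phase effect between BAT and WAT. Among the 10 genes most like Ucp1, 0 remained by rank correlation and 6 with a pseudocount of 0.1. With values rescaled to a common sum, Adrb3 in BAT against aorta was -0.11 and Prdm16 in BAT against vein -0.20. The replicate numbers were not shown to pair the libraries. In no comparison between phases or tissues did all same-numbered libraries correlate above 0.1. The r was 0.030 and 0.099 between the phases of BAT. It spanned -0.00173 to 0.445 between aorta and vein, and 0.00502 to 0.373 between aorta and WAT. Libraries of unlike number were not set beside them, so pairing was not settled. Between the phases a shared mouse is not possible, because the study sacrificed separate mice for each phase. By the study's methods the tissues came from the same mice, but the sources used here do not say which libraries share a mouse, and the tests between tissues treat them as independent. With the replicate block 0 members were called between the phases and 8 for BAT against WAT, 3 against aorta, 6 against vein, 7 for aorta against WAT, 2 for aorta against vein, where Ucp1 was lost, and 5 for vein against WAT, where Elovl3 was lost. Within the 3 for BAT against aorta, Ppargc1a was lost (1.44, adjusted p = 0.0885) and Elovl3 gained (1.81, adjusted p = 0.0263), and the value for Prdm16, BAT against vein was -0.0709. Without 1 library in turn, the counts spanned 0 to 1 between the phases, 8 to 8 for BAT against WAT, 2 to 4 against aorta, 6 to 6 against vein, 7 to 7 for aorta against WAT, 1 to 5 for aorta against vein, 4 to 6 for vein against WAT, and 0 to 0 for both differences of the phase effect. The differences of the log2 ratio of Ucp1 to Adipoq spanned 11.21 to 12.30, 2.17 to 2.72, 9.90 to 10.99 and 7.44 to 8.53 for BAT against WAT, aorta against vein, aorta against WAT and vein against WAT. Adrb3 in BAT against aorta spanned -0.33 to 0.28 and Prdm16 in BAT against vein -0.17 to 0.18. Single members were counted in the pairs of tissues, and between the phases where the phases were apart. There the other alternatives kept direction and side of the limits in 449 values. They gave 18 gained and 9 lost calls and 3 changes of sign. Members with overlapping phases and the differences of the phase effect were left out of this count. The joint-fit calls of Dio2 in uterus and of Prdm16 for the difference between BAT and WAT are thus not in it. Where 1 library was left in a group, it was assumed to vary like the others. Without counts, low values carry an error that cannot be given.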
